A study of Mus musculus with 35 samples.

Results

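The genes described here encode the enzymes and carriers of the urea cycle and of amino acid breakdown in the liver. They were taken from a given list of 39 genes and measured by the array probe sets that name exactly 1 of them. Of the 39 genes, 34 had such a probe set, out of 17097 genes named this way on the arrays. Gls2, Sds, Sdsl, Gstz1 and Got1 are not analysed here.

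The livers came from 35 adult male wild-type C57Bl/6 mice, an inbred laboratory strain, bought from a commercial breeder. Each mouse was caged alone and breathed either plain air or styrene, the volatile monomer of polystyrene, in 1 session of 6 hours, and its liver was taken the next morning. The 7 groups were air and styrene at 1, 5, 10, 20, 40 and 120 ppm, each with 5 mice and 1 Affymetrix array per mouse, labelled as biological replicates. The comparisons ask at which concentration the transcripts of amino acid breakdown differed from air, and in which direction. Food and water were freely available, and the labels name no fast before the livers were taken.

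Hepatocytes remove the nitrogen of amino acids by passing it through transaminases to glutamate, ammonia and aspartate, and the urea cycle turns that nitrogen into urea. The carbon skeletons are broken down along a separate path for each amino acid, most of them in hepatocytes around the portal vein, and feed glucose production and energy metabolism. Methionine takes a route of its own, through S-adenosylmethionine, the methyl donor of the cell, to homocysteine and then to cysteine, the precursor of glutathione and taurine.

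All levels are given as deposited, on a log2 scale, so that a difference of 1 is a doubling of signal. A difference is written as the mean of the styrene group minus the mean of the air group with its standard error (SE), and SD is the spread over the 5 mice of a group. A gene is said to have risen or fallen where limma, fitted to all 35 arrays and adjusted over all 45037 probe sets by the Benjamini-Hochberg method, gave an adjusted p under 0.05. In a piece of whole liver, fewer cells of a type and less RNA per cell cannot be told apart.

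Several measures of the arrays moved with concentration. The air arrays had a median of 3.50 on average (range 3.48 to 3.53), those of 40 ppm 3.57 (3.55 to 3.60) and those of 120 ppm 3.60 (3.57 to 3.63). The actin transcript's 3' minus 5' signal, a reading of RNA integrity, averaged 0.48 in the air mice (0.44 to 0.55), against 0.72 in the 20 ppm mice (0.61 to 0.85), 0.71 in the 40 ppm mice (0.60 to 0.79) and 0.72 in the 120 ppm mice (0.64 to 0.79). The animals' numbers ran from 1 to 8 in air up to 49 to 56 at 120 ppm, so animal number and concentration cannot be told apart. Of 8 measured hepatocyte markers, 1 rose and 0 fell at 120 ppm (12.5%), where 19.4% of all probe sets passed in either direction. Their mean level was 13 to 13.15 in the air mice and 13.08 to 13.18 in the 120 ppm mice. The mean level of 8 Kupffer cell markers, of the liver's resident macrophages, was 7.05 to 8.14 in air and 6.59 to 7.26 at 120 ppm, where 4 of the 8 fell. The part of these measures in the changes below was not tested, and centring each array on its own median is given beside the counts because it moved them.

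The promoters of Slc25a13 and Cbs are shown because these genes had the largest rise and the largest fall at 120 ppm among the genes with a promoter in the table used. Both stretches are the 200 bases before the transcription start in RefSeq on mouse assembly GRCm38.p6, read 5′ to 3′ on the gene's own strand, which is the minus strand for both. Slc25a13 lies at chr6:6217174-6217373 and Cbs at chr17:31637206-31637405. Capitals mark an E-box (CACGTG) at bases 125 to 120 and a CRE half-site (TGACG) at bases 13 to 9 before the start of Slc25a13.
Slc25a13: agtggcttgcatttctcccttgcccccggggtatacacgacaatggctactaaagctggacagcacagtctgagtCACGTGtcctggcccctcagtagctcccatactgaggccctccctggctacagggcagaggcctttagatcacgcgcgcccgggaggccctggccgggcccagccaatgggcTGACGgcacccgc
Cbs: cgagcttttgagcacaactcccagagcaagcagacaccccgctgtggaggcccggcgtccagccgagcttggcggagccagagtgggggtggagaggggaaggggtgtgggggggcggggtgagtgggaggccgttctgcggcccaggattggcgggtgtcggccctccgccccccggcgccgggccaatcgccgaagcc

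Each window was searched on both strands for 4 motifs, namely the E-box CACGTG, the CRE half-site TGACG, the C/EBP-type motif TTGCNNAA and the glucocorticoid half-site AGAACA. None of the 4 occurs in the Cbs window. Of the 34 measured genes, 26 had a promoter in the RefSeq table, with 27 promoters in all. CACGTG was in 3 of the 27 (11.1%) and in 5.26% of all 32851 promoters, and TGACG was in 3 of the 27 (11.1%) and in 15.7% of all. TTGCNNAA was in 3 of the 27 (11.1%), those of Hal, Hgd and Aass, against 7.47% of all. AGAACA was in 2 of the 27 (7.41%) against 12.9%. These matches are letters in a window and say nothing of binding.

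At 1, 5 and 10 ppm, none of the 34 genes differed from air. Across all probe sets 0.00444%, 0.153% and 0.00% passed limma's adjusted p at these concentrations, and among the 34 genes 1, 1 and 0 had an unadjusted p under 0.05. Their differences from air lay between -0.11 and 0.26 at 1 ppm, between -0.29 and 0.18 at 5 ppm, and between -0.21 and 0.21 at 10 ppm.

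At 20 ppm 2 of the 34 genes rose and 0 fell (5.88%), where 1.03% of all probe sets and 2.89% of the 6707 named genes at least as bright as the dimmest of the 34 passed. These were Arg1, arginase, the last enzyme of the urea cycle, and Mat1a, the liver's S-adenosylmethionine synthetase. At this concentration 13 of the 34 genes had an unadjusted p under 0.05. Neither call was steady: with each array centred on its median 1 gene was called, in a fit of the 20 ppm and air arrays alone 0 were, and 0 were without air replicate 1, air replicate 3, 20 ppm replicate 2 or 20 ppm replicate 4.

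At 40 ppm 8 of the 34 genes rose and 1 fell (26.5%), against 14.6% of all probe sets and 20.1% of the genes at least as bright. The risers were Asl, Arg1, Slc25a13, Hal, Mat1a, Prodh, Prodh2 and Gpt, and Cbs fell. With each array centred on its median, 4 rose and 4 fell. Without air replicate 3, 5 genes were called.

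At 120 ppm 8 of the 34 genes rose and 3 fell (32.4%), against 19.4% of all probe sets and 24.0% of the genes at least as bright. Slc25a13, Hal, Kmo, Mat1a, Prodh, Prodh2, Gpt and Aass rose, and Amdhd1, Hgd and Cbs fell. Centring each array on its median gave 3 that rose and 4 that fell, and without air replicate 3 the count was 5, without air replicate 1, 120 ppm replicate 1 or 120 ppm replicate 3 it was 7.

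**Figure D1:**
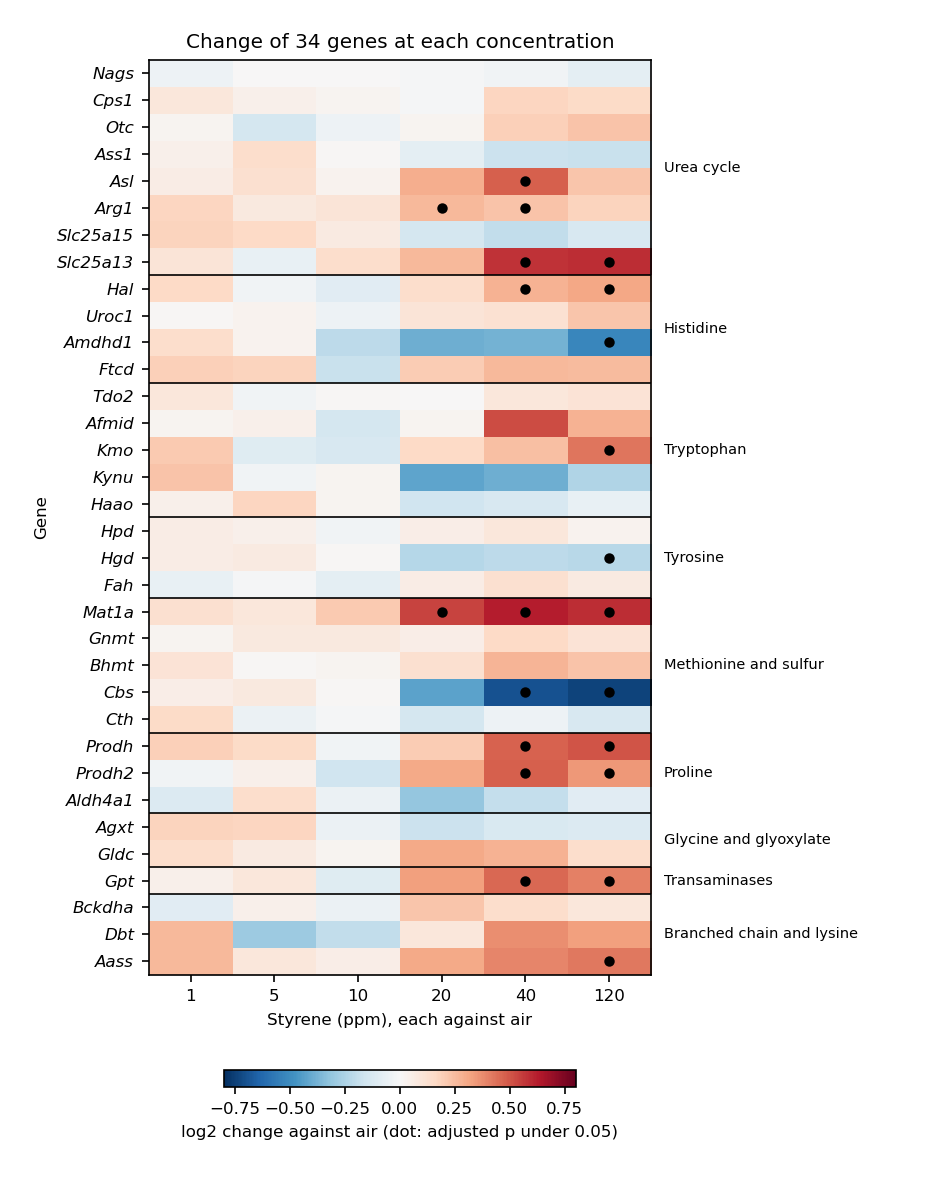
Log2 change against air (colour) of each of the 34 genes (vertical axis, ordered by path) at each styrene concentration in ppm (horizontal axis), with a dot where limma's adjusted p was under 0.05 and n = 5 mice per group. Dots begin at 20 ppm with Arg1 and Mat1a and number 9 at 40 ppm and 11 at 120 ppm.

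Over the 34 genes the median difference from air came to 0.06 for 20 ppm, 0.16 for 40 ppm and 0.14 for 120 ppm, against 0.00, 0.02 and 0.04 over all named genes. The median size of the difference regardless of sign was 0.16, 0.23 and 0.22, against 0.10, 0.15 and 0.17 over all named genes. Over the genes at least as bright as the dimmest of the 34, this size was 0.14, 0.18 and 0.20. Their median difference with its sign was -0.01, 0.03 and 0.01. No change among the 34 at 120 ppm was as large as a doubling or a halving. The 23 genes that did not pass at 120 ppm had differences from -0.24 to 0.33, of which 15 were above 0 and 8 below. All 6 concentrations were compared with the same 5 air mice.

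**Figure D2:**
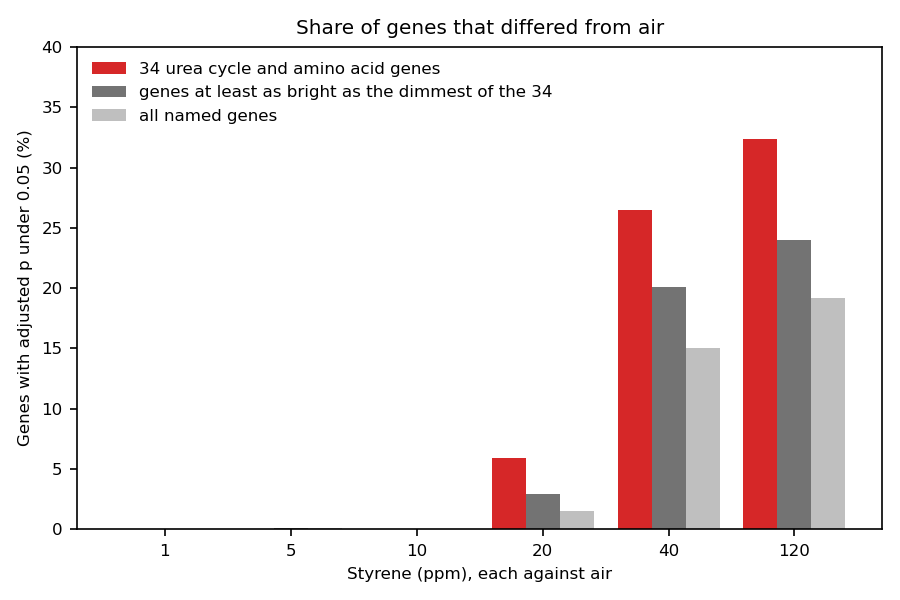
Share of genes with limma's adjusted p under 0.05 (vertical axis, percent) at each styrene concentration against air (horizontal axis, ppm), for the 34 genes, for named genes at least as bright as the dimmest of them, and for all named genes. The 34 genes reached 5.88% at 20 ppm, 26.5% at 40 ppm and 32.4% at 120 ppm, against 2.89%, 20.1% and 24.0% of the genes at least as bright.

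In the urea cycle, 8 genes were measured, of which 1 passed at 120 ppm (12.5%). At this concentration 19.4% of all probe sets and 24.0% of the genes at least as bright passed. The gene was the aspartate/glutamate carrier Slc25a13. This carrier, citrin, exports aspartate from the mitochondrion for the step of Ass1. Its level in the 5 air mice was 10.01, 10.11, 9.91, 10.23 and 10.26. The 20 ppm mice read 10.38, 10.47, 10.07, 10.52 and 10.40, the 40 ppm mice 10.57, 10.72, 10.74, 10.70 and 10.67, and the 120 ppm mice 10.68, 10.62, 10.76, 10.71 and 10.73. Every mouse at 40 and 120 ppm lay above every air mouse, while the third mouse at 20 ppm lay among the air mice. The mean rose from 10.10 ± 0.15 (SD, n = 5) in air to 10.70 ± 0.05 at 120 ppm, a difference of 0.59 (SE 0.11, limma adjusted p = 0.000444), or 1.51-fold. At 40 ppm it was 0.58 (adjusted p = 0.000752, limma), and at 20 ppm 0.26, which did not pass (adjusted p = 0.301).

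Of the cytosolic enzymes of the cycle, Arg1 rose at 20 and 40 ppm and Asl at 40 ppm. Arg1 averaged 12.79 ± 0.07 (SD, n = 5) in the air mice, against 13.06 ± 0.10 after 20 ppm, 13.03 ± 0.07 after 40 ppm and 12.97 ± 0.04 after 120 ppm. It rose by 0.26 at 20 ppm (SE 0.07, adjusted p = 0.0397, limma) and by 0.23 at 40 ppm (SE 0.07, adjusted p = 0.0155), and differed by 0.18 at 120 ppm without passing (adjusted p = 0.0558). The air mice lay between 12.68 and 12.85, below every mouse of 1, 20, 40 and 120 ppm. At 1 ppm the mice ran from 12.86 to 13.04, a difference of 0.17 that did not pass (limma unadjusted p = 0.0126, adjusted p = 0.786). The call at 20 ppm was lost on centring and on leaving out a single mouse, namely any of the 5 air mice or replicate 2, 4 or 5 of 20 ppm (largest adjusted p 0.153), and that at 40 ppm on centring (adjusted p = 0.0832) and without air replicate 3 (0.0553).

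Asl, argininosuccinate lyase, which releases arginine, averaged 11.78 ± 0.09 in air and 12.25 ± 0.23 at 40 ppm (SD, n = 5), a rise of 0.48 (SE 0.15, limma adjusted p = 0.0315). Its 5 air mice ranged from 11.66 to 11.90, and the 40 ppm mice, at 11.91, 12.15, 12.50, 12.35 and 12.35, were all higher, the lowest of them barely so. At 120 ppm the difference was 0.22 (95% confidence interval -0.09 to 0.53, adjusted p = 0.321). The call at 40 ppm was lost on centring (adjusted p = 0.0692) and on leaving out a single mouse of air (replicate 2, 3, 4 or 5) or of 40 ppm (replicate 1, 4 or 5) (largest adjusted p 0.0829).

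The brightest probe sets of the other 5 genes of the cycle passed at none of these concentrations. Cps1, carbamoyl phosphate synthetase, the entry of ammonia into the cycle, differed by 0.15 at 120 ppm (interval -0.01 to 0.31) and Otc, ornithine transcarbamylase, by 0.23 (-0.12 to 0.57). Ass1, argininosuccinate synthetase, which joins citrulline to the aspartate that Slc25a13 exports, differed by -0.18 (-0.36 to 0.01, limma adjusted p = 0.167). With each array centred on its median, that of Ass1 was -0.27 and passed (adjusted p = 0.0278). Nags, which makes the activator of Cps1, differed by -0.08 (-0.29 to 0.14) and Slc25a15, the ornithine carrier, by -0.13 (-0.31 to 0.06). At 40 ppm Slc25a15 differed by -0.20 (limma adjusted p = 0.134), while its dimmer probe set fell, at -0.34 (adjusted p = 0.0334). On centring the brighter one passed too (-0.27, adjusted p = 0.0406), as did the mean of both (-0.27, 0.0476).

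Of the 4 genes of histidine breakdown, Hal rose and Amdhd1 fell at 120 ppm. Amdhd1, the imidazolonepropionase of the third step, read 6.98, 7.36, 6.98, 7.42 and 7.12 in the air mice. The 20 ppm mice gave 7.06, 6.89, 7.26, 6.54 and 6.19, the 40 ppm mice 6.71, 6.73, 7.18, 6.68 and 6.69, and the 120 ppm mice 6.74, 6.80, 6.65, 6.33 and 6.76. Every 120 ppm mouse was below every air mouse, whereas the first mouse and the third of 20 ppm, and the third of 40 ppm, lay among them. Its mean fell from 7.17 ± 0.21 to 6.65 ± 0.19 (SD, n = 5), a difference of -0.52 (SE 0.15, limma adjusted p = 0.0132). At 40 ppm the difference was -0.38 and did not pass (adjusted p = 0.0808), but it passed on centring (-0.45, adjusted p = 0.0428), when the 2 groups were fitted alone (0.0462), under array weights (0.0404) and when the arrays were quantile normalized once more (0.0458).

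Hal, histidine ammonia-lyase, the first step of the same path, averaged 11.03 ± 0.09 in air, 11.30 ± 0.13 at 40 ppm and 11.34 ± 0.08 at 120 ppm (SD, n = 5). It rose by 0.28 at 40 ppm (SE 0.09, adjusted p = 0.0422) and by 0.31 at 120 ppm (SE 0.09, adjusted p = 0.0194, limma). The air mice reached 11.10 and the 120 ppm mice began at 11.24, so these groups did not overlap. On centring, Hal passed at neither (adjusted p = 0.133 at 40 ppm and 0.106 at 120 ppm), and without air replicate 3 its adjusted p at 120 ppm was 0.0639. Its call at 40 ppm was also lost with the replicate number as a block (adjusted p = 0.0538), after a second quantile normalization (0.0583) and on leaving out replicate 1, 2, 3 or 4 of air or replicate 1, 3, 4 or 5 of 40 ppm (largest 0.122). Uroc1, urocanase, the second step, differed by 0.22 at 120 ppm (adjusted p = 0.0582) and Ftcd, which passes the last carbon to folate, by 0.25 (adjusted p = 0.0715). A dimmer probe set of Uroc1 did pass, at 0.32 at 40 ppm (adjusted p = 0.0414) and 0.32 at 120 ppm (limma adjusted p = 0.0337).

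Of the 5 genes of tryptophan breakdown, the kynurenine path, Kmo alone passed at 120 ppm (20.0%), and none did at 20 or 40 ppm. That share is close to the 19.4% of all probe sets and below the 24.0% of the genes at least as bright. Kmo, kynurenine monooxygenase, read 9.80, 9.71, 9.70, 9.84 and 10.08 in air. After 20 ppm it read 10.09, 10.14, 9.77, 10.01 and 9.94, after 40 ppm 10.07, 10.22, 10.09, 9.86 and 10.07, and after 120 ppm 10.25, 10.30, 10.37, 10.04 and 10.34. The fourth mouse at 120 ppm lay just below the highest air mouse, and the other four lay above all of them. The rise was 0.43 (SE 0.15, adjusted p = 0.0392, limma), from 9.83 ± 0.15 to 10.26 ± 0.13 (SD, n = 5). It was lost on centring (adjusted p = 0.116) and on leaving out replicate 1, 2, 3 or 4 of air or replicate 1, 2, 3 or 5 of 120 ppm (largest 0.0903).

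Tdo2, tryptophan dioxygenase, the entry step of that path, differed by 0.11 at 120 ppm (95% interval -0.13 to 0.35). Afmid, the formamidase after it, read 5.39 ± 0.32 in air and 5.91 ± 0.20 at 40 ppm (SD, n = 5), a difference of 0.52 just short of the threshold (limma adjusted p = 0.0538). At 120 ppm Afmid differed by 0.28 (-0.09 to 0.65). Kynu, kynureninase, differed by -0.24 (-0.67 to 0.18) and Haao, the dioxygenase of the last step measured, by -0.06 (-0.22 to 0.09). The slope of Kynu over concentration passed (-0.07, limma adjusted p = 0.0274). A dimmer probe set of Kynu, with a mean of 4.71, differed by -0.54 at 40 ppm (adjusted p = 0.0809) and -0.50 at 120 ppm (0.0860). That probe set passed limma's F test (adjusted p = 0.00432) and on the slope (-0.12, 0.00178).

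Of the 3 genes of tyrosine breakdown, Hgd fell at 120 ppm by its brighter probe set (33.3%). Over all probe sets 19.4% passed, and over the genes at least as bright 24.0%. Hgd, homogentisate dioxygenase, read 12.38, 12.38, 12.31, 12.43 and 12.45 in air. In the 20 ppm group the values were 12.17, 12.08, 12.51, 12.05 and 11.97, in the 40 ppm group 12.16, 12.20, 12.18, 12.09 and 12.28, and in the 120 ppm group 12.21, 12.08, 12.15, 12.12 and 12.26. All mice at 40 and 120 ppm were below all air mice, and at 20 ppm the third mouse was the highest of both groups while the others were below all air mice. The difference at 120 ppm was -0.22 (SE 0.08, adjusted p = 0.0459, limma). A dimmer probe set of Hgd pointed the other way, at 0.33 (adjusted p = 0.279), and the mean of both gave 0.05. The call was also lost on leaving out any of the 5 air mice or replicate 1, 2, 3 or 4 of 120 ppm (largest adjusted p 0.0982), with the replicate number as a block, in a fit of the 2 groups alone and after a second quantile normalization.

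The other measured genes of the tyrosine path, Hpd and Fah, did not pass at 20, 40 or 120 ppm. Hpd, 4-hydroxyphenylpyruvate dioxygenase, just before Hgd, differed by 0.03 at 120 ppm (95% interval -0.10 to 0.15), and by -0.07 with each array centred on its median. Fah, fumarylacetoacetase, the last step, differed by 0.07 (-0.05 to 0.18), and by -0.03 on centring. At 40 ppm Fah differed by 0.13 (0.02 to 0.25, limma adjusted p = 0.114), and its slope over concentration passed (0.02 per doubling of ppm + 1, adjusted p = 0.0431).

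The methionine and sulfur path held both the largest rise and the largest fall of the 34 genes at 40 ppm, in Mat1a and Cbs. These were 2 of its 5 genes at 40 ppm and again at 120 ppm (40.0%). Over all probe sets 14.6% and 19.4% passed, and over the genes at least as bright 20.1% and 24.0%. Cbs, cystathionine beta-synthase, which commits homocysteine to cysteine, read 11.01, 11.01, 11.04, 10.99 and 10.97 in air. The 20 ppm mice gave 10.55, 10.49, 11.22, 10.33 and 10.26, the 40 ppm mice 10.25, 10.05, 10.17, 10.48 and 10.57, and the 120 ppm mice 10.22, 10.19, 9.97, 10.40 and 10.54. Every mouse at 40 and 120 ppm, and 4 of the 5 at 20 ppm, was below every air mouse, and the third mouse at 20 ppm was above them all. The mean fell from 11 ± 0.03 (SD, n = 5) to 10.31 ± 0.22 at 40 ppm and to 10.26 ± 0.22 at 120 ppm.

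The difference of Cbs from air was -0.70 at 40 ppm (SE 0.13, limma adjusted p = 0.000638) and -0.74 at 120 ppm (SE 0.13, adjusted p = 0.000285), or 1.67-fold lower at the top concentration. At 20 ppm the difference was -0.43 and did not pass (adjusted p = 0.107). Without the third mouse of 20 ppm it was -0.59 (adjusted p = 0.00243, limma). A second Cbs probe set passed at all 3 concentrations, at -0.56 for 20 ppm (adjusted p = 0.0351), -0.68 for 40 ppm (0.00111) and -0.87 for 120 ppm (7.13e-05).

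Mat1a makes S-adenosylmethionine from methionine at the head of this path, and its values in each mouse are given after they were seen. The air mice read 12.27, 12.40, 12.17, 12.45 and 12.74. The 20 ppm mice read 12.86, 13.27, 12.92, 13.11 and 12.59, the 40 ppm mice 13.19, 12.85, 13.05, 13.04 and 13.04, and the 120 ppm mice 13.12, 13.02, 13, 12.87 and 12.97. All mice at 40 and 120 ppm lay above all air mice, and the fifth mouse at 20 ppm lay among the air mice. Mat1a rose by 0.54 at 20 ppm (SE 0.12, adjusted p = 0.0211), 0.63 at 40 ppm (SE 0.12, 0.000853) and 0.59 at 120 ppm (SE 0.12, 0.00116, limma), or 1.51-fold at 120 ppm. Its call at 20 ppm was lost in a fit of the 2 groups alone (adjusted p = 0.151) and without air replicates 1 or 3 or 20 ppm replicates 2 or 4 (largest 0.120).

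The other measured genes of this path, Gnmt, Bhmt and Cth, did not pass at 20, 40 or 120 ppm. On the slope over concentration Gnmt (0.02, limma adjusted p = 0.0475) and Bhmt (0.03, 0.0421) did pass. Gnmt, the glycine methyltransferase that uses up S-adenosylmethionine, differed by 0.11 at 120 ppm (95% interval -0.02 to 0.23). Bhmt, which returns homocysteine to methionine, differed by 0.23 (0.01 to 0.44, limma adjusted p = 0.132). Cth, cystathionine gamma-lyase, which releases cysteine after Cbs, differed by -0.13 (-0.41 to 0.15).

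**Figure D3:**
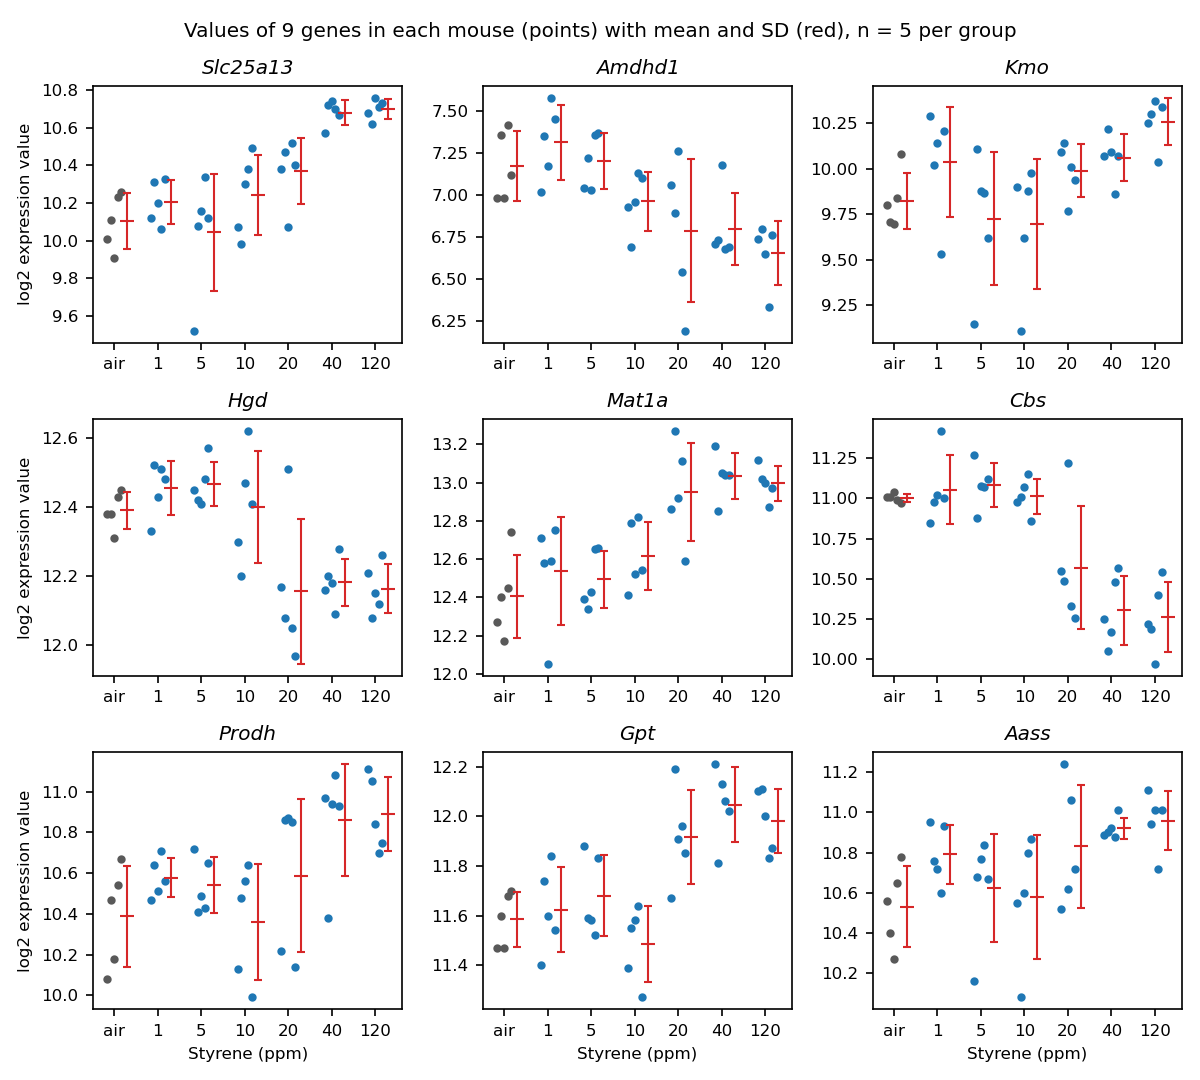
Log2 expression value (vertical axis, a scale of its own per gene) of 9 genes in each of the 35 mice by styrene concentration (horizontal axis, ppm), with air mice in grey, styrene mice in blue, and the group mean and SD in red. For Cbs every mouse at 40 and 120 ppm lies below the air mice, at 9.97 to 10.57 against 10.97 to 11.04, and the third mouse of 20 ppm, at 11.22, lies above them.

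In the breakdown of proline and hydroxyproline, Prodh and Prodh2 rose at 40 and 120 ppm, and Aldh4a1 did not pass at 20, 40 or 120 ppm. At 120 ppm the share was 66.7% of 3 genes, against 19.4% of all probe sets and 24.0% of the genes at least as bright. Prodh, proline dehydrogenase, read 10.08, 10.47, 10.18, 10.54 and 10.67 in air. After 20 ppm it read 10.22, 10.86, 10.87, 10.85 and 10.14, after 40 ppm 10.97, 10.38, 10.94, 11.08 and 10.93, and after 120 ppm 11.11, 11.05, 10.84, 10.70 and 10.75. The 120 ppm mice lay above all air mice, the lowest by a small margin, and at 40 ppm the second mouse lay within the air range. The mean was 10.39 ± 0.25 in air, 10.86 ± 0.28 at 40 ppm and 10.89 ± 0.18 at 120 ppm (SD, n = 5), for rises of 0.47 (SE 0.15, adjusted p = 0.0295) and 0.50 (SE 0.15, adjusted p = 0.0176, limma). On centring the adjusted p was 0.0645 and 0.0536, the 120 ppm call was lost without air replicate 1 or 3 (largest 0.0548), and the 40 ppm call without air replicate 1 or 3 or any of 40 ppm replicates 1, 3, 4 and 5 (largest 0.0869).

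Prodh2, which oxidises hydroxyproline, averaged 10.04 ± 0.16 in air, 10.52 ± 0.16 at 40 ppm and 10.40 ± 0.12 at 120 ppm (SD, n = 5). It rose by 0.48 at 40 ppm (SE 0.11, adjusted p = 0.00522) and 0.35 at 120 ppm (SE 0.11, adjusted p = 0.0281, limma). The rise at 120 ppm was lost on centring (adjusted p = 0.113) and without air replicates 1 or 3 or 120 ppm replicates 1, 2 or 3 (largest 0.0803). Aldh4a1, which completes the conversion of proline to glutamate after Prodh, differed by -0.31 at 20 ppm (adjusted p = 0.175), -0.19 at 40 ppm and -0.09 at 120 ppm (95% interval -0.30 to 0.13).

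Gpt, the alanine transaminase, was the measured member of the transaminases. It read 11.47, 11.60, 11.47, 11.68 and 11.70 in air. In the 20 ppm group the values were 11.67, 12.19, 11.91, 11.96 and 11.85, in the 40 ppm group 12.21, 11.81, 12.13, 12.06 and 12.02, and in the 120 ppm group 12.10, 12.11, 12.00, 11.83 and 11.87. All mice at 40 and 120 ppm were above all air mice, and only the first mouse at 20 ppm was not. The rise was 0.46 at 40 ppm (SE 0.10, adjusted p = 0.00240) and 0.40 at 120 ppm (SE 0.10, adjusted p = 0.00586, limma), from a mean of 11.58 ± 0.11 to 12.04 ± 0.15 and 11.98 ± 0.13 (SD, n = 5).

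Of the 3 genes of lysine and branched-chain breakdown, Aass rose at 120 ppm (33.3%). Over all probe sets 19.4% passed, and over the genes at least as bright 24.0%. Aass, the aminoadipate semialdehyde synthase that opens lysine breakdown, read 10.56, 10.40, 10.27, 10.65 and 10.78 in air. The 20 ppm mice gave 10.52, 11.24, 10.62, 11.06 and 10.72, the 40 ppm mice 10.89, 10.90, 10.92, 10.88 and 11.01, and the 120 ppm mice 11.11, 10.94, 11.01, 10.72 and 11.01. The 40 ppm mice lay above all air mice, while the fourth mouse at 120 ppm lay below the highest of them. The rise at 120 ppm was 0.42 (SE 0.14, adjusted p = 0.0270, limma), from 10.53 ± 0.20 to 10.96 ± 0.15 (SD, n = 5), and at 40 ppm the difference was 0.39 (adjusted p = 0.0521). The call at 120 ppm was lost on centring (adjusted p = 0.0858) and without air replicates 2 or 3 or 120 ppm replicates 1, 3 or 5 (largest 0.0889).

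Bckdha and Dbt, parts of the complex that commits leucine, isoleucine and valine to oxidation, differed by 0.09 (95% interval -0.12 to 0.30) and 0.33 (-0.26 to 0.92) at 120 ppm. The values of Dbt spread widely, with an SD of 0.24 in air and 0.93 at 5 ppm. In glycine and glyoxylate metabolism, the glycine cleavage enzyme Gldc differed by 0.14 (-0.09 to 0.36) and Agxt, the alanine-glyoxylate transaminase, by -0.11 (-0.39 to 0.16). None of these 4 genes passed at any concentration.

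**Figure D4:**
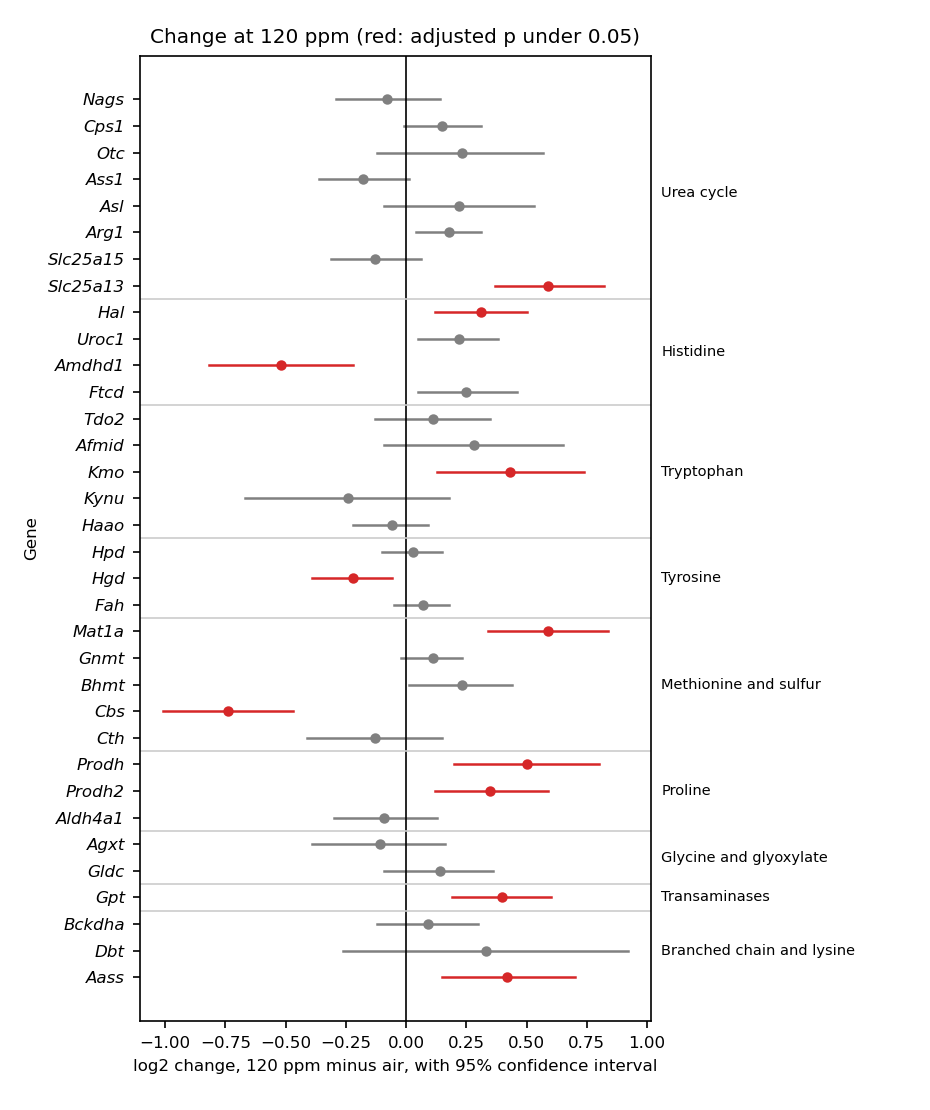
Log2 difference at 120 ppm minus air (horizontal axis) with its 95% confidence interval for each of the 34 genes (vertical axis, ordered by path), n = 5 mice per group, with limma's adjusted p under 0.05 in red. Cbs at -0.74 and Amdhd1 at -0.52 lie farthest below 0, and Slc25a13 and Mat1a, both at 0.59, farthest above.

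Between neighbouring concentrations, no gene of the 34 differed by limma's adjusted p at 40 against 20 ppm or at 120 against 40 ppm, where 0.373% and 0.0244% of all probe sets passed. At 40 against 20 ppm 3 genes had an unadjusted p under 0.05. They were Slc25a13 at 0.31 (adjusted p = 0.192), Afmid at 0.50 (0.213) and Cps1 at 0.18 (limma adjusted p = 0.309). At 120 against 40 ppm 0 had one, and the differences lay between -0.26 and 0.20.

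Across the 7 groups, limma's F test passed for 15 of the 34 genes (44.1%), against 20.4% of all probe sets and 28.7% of the genes at least as bright. Some passed it but, by the same probe set and fit, no single comparison with air. Slc25a15 (F test adjusted p = 0.00519) had its highest mean at 1 ppm, 11.63 ± 0.03 (SD, n = 5), against 11.44 ± 0.06 in air and 11.25 ± 0.09 at 40 ppm. Haao (adjusted p = 0.0151) averaged 11.72 ± 0.13 at 5 ppm and 11.39 ± 0.17 at 20 ppm, Ftcd (0.00773) was lowest at 10 ppm at 10.88 ± 0.29, and Aldh4a1 (0.0433) was highest at 5 ppm at 8.34 ± 0.23.

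A slope on log2(ppm + 1) passed for 19 of the 34 genes (55.9%), 13 rising and 6 falling with concentration, against 32.0% of all probe sets and 39.3% of the genes at least as bright. With each array centred on its median 5 rose and 10 fell. Cbs had the steepest fall, by 0.13 per doubling of ppm + 1 (slope -0.13, SE 0.02, adjusted p = 6.19e-06), followed by Amdhd1 (-0.10, SE 0.02, 0.000140). Mat1a had the steepest rise (0.10, SE 0.02, adjusted p = 1.42e-05), followed by Slc25a13 (0.09, SE 0.02, 2.09e-05, limma).

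The wider breakdown of amino acids was read from 59 further genes, of which 47 were measured. At 120 ppm 13 rose and 2 fell (31.9%), where 19.4% of all probe sets and 24.0% of the genes at least as bright as the dimmest of the 34 passed. At 40 ppm 16 rose and 1 fell (36.2%), where these shares were 14.6% and 20.1%. With each array centred on its median, 8 rose and 5 fell at 120 ppm. Dhtkd1, which acts after Aass in lysine breakdown, rose by 0.94 at 120 ppm (SE 0.18, limma adjusted p = 0.000599), from 8.73 to 9.67. Gpt2, the mitochondrial alanine transaminase, rose by 0.72 (SE 0.11, adjusted p = 4.95e-05), Agxt2 by 0.65 (0.00583), Asrgl1, an asparaginase, by 0.61 (0.000392) and Mmut, which takes the propionate of several amino acids to succinate, by 0.51 (0.00648).

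In the sulfur path beyond Cbs, Csad, which leads cysteine sulfinate to taurine, fell by 1.83 on the log2 scale at 120 ppm (SE 0.44, limma adjusted p = 0.00391), from 10.13 ± 0.83 to 8.30 ± 1.06 (SD, n = 5). At 40 ppm it differed by -0.23 (adjusted p = 0.772), and the difference between 120 and 40 ppm was -1.60 (adjusted p = 0.377). Cdo1, the cysteine dioxygenase one step before, named after its values were seen, rose by 0.38 at 120 ppm (adjusted p = 0.00219, limma). Gcat, of threonine and glycine breakdown, fell by 0.60 (adjusted p = 0.000521). Tat, tyrosine transaminase, differed by -0.39 (adjusted p = 0.143), and passed with the replicate number as a block (adjusted p = 0.0443) or animal order as a covariate (0.0466). Glud1, glutamate dehydrogenase, differed by 0.03 (limma adjusted p = 0.789) and Oat, ornithine aminotransferase, by 0.06 (0.754). Those of Glud1 and Oat were -0.06 and -0.03 on centring.

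Of 15 amino acid transporters 14 were measured, and at 120 ppm 2 rose and 1 fell (21.4%), a share close to the 19.4% of all probe sets and below the 24.0% of the genes at least as bright. On centring 1 rose and 1 fell. The glycine transporter Slc6a9 rose by 0.82 (SE 0.20, limma adjusted p = 0.00491), and Slc3a2, the shared heavy chain of several transporters, fell by 0.45 (adjusted p = 0.00491). Of 16 regulators 14 were measured and 1 fell at 120 ppm (7.14%), below both of these shares. This was Cebpb, a transcription factor of the hepatocyte's metabolic genes, at -0.57 (adjusted p = 0.0316), and the call was lost in a fit of the 2 groups alone (adjusted p = 0.0620) and on leaving out replicate 1, 2 or 5 of air or replicate 2, 3, 4 or 5 of 120 ppm (largest 0.123). Klf15, which drives amino acid breakdown in fasting, differed by -0.28 (adjusted p = 0.180). Ppargc1a is not analysed here.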

How the data were processed

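The authors' deposited table held 1 log2 value per probe set and array, made, per the submitters' processing notes, with RMA and Partek (versions not given in the sources used here). The base of the logarithm is not given in the sources used here and was taken as 2 from the range, 1.74 to 14.23. No probe-level data were used, so signal over background was not determined, and the number of arrays limits the precision.

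Of 45141 probe sets, 104 controls were left out. Of the 45037 tested, 28898 had 1 symbol, 551 several and 15588 none, in a platform annotation that can be old. Symbols set against a RefSeq gene table of GRCm38.p6 changed in 0 cases. A gene was read from the probe set with the highest mean over 35 arrays among those naming it alone, and 8 of the 34 genes had several.

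In R 4.3.3, limma 3.58.1 fitted 7 group means to all arrays, with 28 residual and 5.41 prior degrees of freedom, tested on simulated data first. The data.table package was version 1.17.8. The list of 39 genes, the other lists and the naming rule were chosen with earlier results of these data known. Each gene of the 39 was named, those called at 20, 40 or 120 ppm with full statistics, and every mouse was given for the largest called change per path. From the other lists, up to 6 called rises and 6 called falls at 120 ppm were named. Alternatives were centring, a second quantile normalization, a trended prior, array weights, brighter probe sets, only the groups compared, a replicate block, animal order, the mean over probe sets, and each replicate left out. Leaving out the 2 arrays that correlated least with the rest was chosen after seeing the data.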

Additional observations from a re-analysis of the deposited data

Results flagged for a closer look

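In 18 of the 238 sets of 5 mice (7.56%), formed by the 34 genes in 7 groups, the highest or lowest mouse stood apart from the rest by Dixon's rule at the 95% level. Chance flags about 1 in 20 such sets. The arrays that stood apart most often were 5 ppm replicate 1, with 3, and 40 ppm replicate 2, with 3. The arrays of 5 ppm replicate 1 and 10 ppm replicate 2 were also those that correlated least with the others.

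Among genes that passed at 20, 40 or 120 ppm, Amdhd1 stood high at 7.18 in 40 ppm replicate 3, while Prodh stood low at 10.38 and Prodh2 at 10.23 in 40 ppm replicate 2. Aass was low at 10.16 in 5 ppm replicate 1 and Mat1a at 12.05 in 1 ppm replicate 3. In air replicate 3, Arg1 was low at 12.68 and Hal at 10.87.

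Among the other genes, Otc was low at 10.40 and Kynu at 8.50 in 10 ppm replicate 2. Kynu was also low at 8.65 in 5 ppm replicate 1 and at 8.58 in 20 ppm replicate 5. Dbt was low at 5.37 in 5 ppm replicate 1 and at 6.75 in 1 ppm replicate 4. The remaining values were 11.67 for Slc25a15 in 1 ppm replicate 5, 10.89 for Uroc1 in 40 ppm replicate 2, 11.65 for Haao in air replicate 4, 12.01 for Fah in 10 ppm replicate 4 and 10.03 for Bckdha in 1 ppm replicate 4.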

How the results depend on the processing

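Slc25a13, Amdhd1, Mat1a, Cbs and Gpt kept their calls at 120 ppm, and Slc25a13, Mat1a, Cbs, Prodh2 and Gpt theirs at 40 ppm, in each alternative and each leave-one-out fit. Centring each array on its median, which removes a rise of the array median with concentration, gave 1 call at 20 ppm and 7 at 120 ppm. Array weights gave 4 at 20 ppm, 16 at 40 ppm and 1 at 40 against 20 ppm. Fitting only the groups compared gave 0 at 20 ppm and 15 at 40 ppm. Leaving out 1 replicate gave 0 to 5 calls at 20 ppm, 5 to 10 at 40 ppm, 5 to 10 at 120 ppm, 12 to 17 in the F test and 15 to 21 on the slope. The 5 at 20 ppm came without 20 ppm replicate 3 and added Cbs (-0.59), Hgd (-0.32, adjusted p = 0.0104) and Aldh4a1 (-0.39, adjusted p = 0.0415). Under 1 or more of these alternatives Slc25a15, Amdhd1, Ftcd, Afmid, Hgd, Gnmt, Bhmt, Dbt and Aass also passed at 40 ppm, and Arg1, Ass1, Uroc1 and Ftcd at 120 ppm. Other causes were not tested.

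The fit with the replicate number as a block gave 2 calls at 20 ppm, 8 at 40 ppm, 10 at 120 ppm, 13 in the F test, 16 on the slope and 0 elsewhere. Over 105 pairs of arrays with the same number in different groups, correlations of deviations from the group mean ran from -0.39 to 0.37, and 8 of 35 arrays correlated best with their own number.

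Apart from Hgd, signs turned only for differences of at most 0.09 in size. At 20 ppm these were Otc (0.00), Tdo2 (-0.02) and Afmid (-0.01) on centring, Nags (0.01), Tdo2 (-0.02) and Afmid (-0.01) after a second quantile normalization, Cps1 (0.03) and Afmid (-0.09) with array weights, and Otc (-0.09) and Hgd (0.04) as a mean over probe sets. Hgd was 0.03 at 40 ppm and 0.05 at 120 ppm on that mean. At 120 ppm Hpd was -0.07, Fah -0.03, Bckdha 0.00, Glud1 -0.06 and Oat -0.03 on centring, and Hpd 0.00 after a second quantile normalization. Over the fits that each left out 1 replicate, the difference changed sign at 20 ppm for Otc (-0.05 to 0.08), Tdo2 (-0.06 to 0.09), Nags (-0.08 to 0.03), Cps1 (-0.05 to 0.07), Afmid (-0.14 to 0.14) and Dbt (-0.02 to 0.20), at 40 ppm for Nags (-0.06 to 0.02) and Cth (-0.08 to 0.02), and at 120 ppm for Oat (-0.04 to 0.16).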

Other observations

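Many of the 34 genes are known as genes of hepatocytes around the portal vein. Of 12 measured genes of that zone that are not among the 34, 0 rose and 4 fell at 120 ppm (33.3%), and of 9 measured genes of hepatocytes around the central vein 2 rose and 2 fell (44.4%), where 19.2% of all named genes passed by limma's adjusted p. At 40 ppm 1 rose and 1 fell of the first list (16.7%), and 2 rose and 1 fell of the second (33.3%). At 40 ppm 14.6% of all probe sets passed. Among the named genes at least as bright as the dimmest of the 34, 20.1% passed at 40 ppm and 24.0% at 120 ppm.

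Within groups, the order of the animals' numbers had no slope that passed for any of the 34 genes by limma's adjusted p, and 4 had an unadjusted p under 0.05. The lowest was that of Slc25a13, at 0.06 per place (limma unadjusted p = 0.00465, adjusted p = 0.117). The others were Kynu (0.09, unadjusted p = 0.0257), Tdo2 (0.05, 0.0379) and Otc (0.06, 0.0447). Over the 34 genes the slopes lay between -0.03 and 0.09 per place on the log2 scale.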
